A study of Mus musculus with 58 samples.

Results

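The gene set described here comprises 9 of the 18088 genes in the deposited table, chosen by name as nuclear receptors that recruit NCoR corepressor complexes together with genes of thyroid hormone supply and response. They are the thyroid hormone receptors Thra and Thrb, the deiodinase Dio2, the hormone-responsive genes Hr and Klf9, the retinoic acid receptors Rara and Rarb, and the retinoid X receptors Rxra and Rxrg. All 9 were found in the table by Ensembl ID, and all 9 lay among the 16606 genes that were abundant enough to be tested. Their values were read in prefrontal cortex of C57BL/6J mice at postnatal day 25. The animals were heterozygous for a knock-in allele of Tbl1xr1 (HT) or wild type (WT). The labels do not describe the knock-in change further. Pups of both genotypes took up fluoxetine, lithium or vehicle with their mother's milk between postnatal days 3 and 24, over 3 weeks. HT fluoxetine, HT lithium, HT vehicle, WT fluoxetine and WT vehicle had 5 female and 5 male libraries each, and WT lithium had 4 and 4, which gives 58 libraries in 12 groups. The labels neither tie a library to a single animal nor name dams or litters. The p-values therefore measure the spread between libraries, and effects of a drug and of the litters that received it cannot be told apart.

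Thyroid hormone receptors and retinoic acid receptors sit on DNA as dimers with retinoid X receptors. Without ligand they hold a corepressor complex, to which TBL1XR1 and its paralog TBL1X belong together with the histone deacetylase HDAC3, and with ligand they exchange it for coactivators and transcription rises. In brain, astrocytes make most of the active hormone T3 from T4 with the enzyme that Dio2 encodes, and neurons respond through genes such as Hr, which encodes a corepressor, and Klf9, which encodes a Krüppel-like transcription factor that also follows glucocorticoids.

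Recovered reads per library ran from 22.9 M to 35.01 M, with a median of 26.73 M. Tbl1xr1 itself was higher in HT libraries, with 2275.5 to 2746.8 normalised reads (median 2523.6, n = 30), against 1817.3 to 2278.6 in WT libraries (median 2068.0, n = 28), and under each treatment the genotypes did not overlap. Markers of upper-layer cortical neurons were present in every library, with summed values of 12717.5 to 20543.1. Markers of tissue next to the dissected region were present in unequal amounts. The summed olfactory bulb list ran from 334.9 to 19751.3, with medians of 989.2 in HT and 3666.0 in WT libraries. The summed striatal projection neuron list ran from 6274.6 to 24186.4, with the highest value in HT lithium female 2, and with medians of 7357.3 in HT and 7709.5 in WT libraries. No marker of either list was at 0 throughout. In such bulk tissue, fewer cells of a type and less RNA per cell cannot be told apart.

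Receptor binding sites are built from the half-site AGGTCA and close variants, and the spacing of a pair of half-sites favours one receptor over another. The RefSeq promoter windows of GRCm38.p6, which reach from 250 bases before to 50 bases after a gene start, were available for 7 of the 9 genes in 13 windows. They were searched on both strands for AGGTCA, for TGACGTCA (the palindrome bound by cAMP-responsive factors) and for repeats of GTTCA or GGTCA in 1 orientation. Repeats with 5 bases between these 5-letter cores correspond to a spacing of 4 bases between full half-sites (DR4, the classical thyroid hormone response element), and repeats with 6 bases between them to a spacing of 5 bases (DR5, the classical retinoic acid response element). The stretches below are shown 5′ to 3′ on the strand of the gene because they hold the matches in genes whose values are followed in the results, with the matching letters in capitals.
Rarb, chr14:16575473-16575568, minus strand, a DR5 repeat beginning 52 bases before the start: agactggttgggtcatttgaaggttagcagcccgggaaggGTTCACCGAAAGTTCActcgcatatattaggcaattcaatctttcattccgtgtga
Rxrg, chr1:167618137-167618222, plus strand, AGGTCA beginning 88 bases before a start inside the gene: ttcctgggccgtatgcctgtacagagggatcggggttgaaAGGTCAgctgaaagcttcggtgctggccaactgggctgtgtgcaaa
Thrb, chr14:17660736-17660821, plus strand, AGGTCA beginning 184 bases before the start: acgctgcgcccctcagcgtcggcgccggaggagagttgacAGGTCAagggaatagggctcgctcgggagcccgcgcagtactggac
Dio2, chr12:90739086-90739173, minus strand, TGACGTCA beginning 95 bases before the start: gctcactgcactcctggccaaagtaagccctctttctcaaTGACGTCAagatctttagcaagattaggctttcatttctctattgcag
In each line the start is that of the RefSeq window. For Rarb and Thrb, as for Rxrg, it lies inside the gene as positioned here, and for Dio2 outside it. The Rarb repeat is the best-known retinoic acid response element of this gene, and 0.247% of all 32851 windows held a DR5 match. AGGTCA stood in 16.3% of all windows, among them windows of Rara, Rxra, Rxrg and Thrb. TGACGTCA stood in 1.79% of windows and, among these genes, in a window of Dio2. DR4 matches were found in 0.207% of windows, and in no window of these genes. A match is a run of letters and not a site in use.

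Per kilobase of exon, the 9 genes spanned a wide range of levels, led by Thra at 4489.7 ± 441.5 normalised reads per kb (SD, n = 58). Klf9 followed with 1682.6 ± 146.0, Dio2 with 868.3 ± 135.8 and Thrb with 214.4 ± 34.62. These 4 stood in this order in 58 of 58 libraries, without overlapping ranges. Hr had 185.8 ± 27.15 per kb and lay below Thrb in 51 of 58 libraries, and Rxra had 124.7 ± 10.02, below Hr in 58 of 58 with ranges that nevertheless overlapped. Rxrg had 102.1 ± 40.17 per kb and lay below Rxra in 46 of 58 libraries. Rara had 68.04 ± 15.62 and lay below Rxrg in 50 of 58, and Rarb had 49.05 ± 17.55 and lay below Rara in 52 of 58. From Thrb downward the ranges of neighbouring genes overlapped. Library to library, Rxra and Klf9 varied least, with coefficients of variation of 8.04% and 8.68% over all libraries, and Rarb and Rxrg most, with 35.8% and 39.4%. Exons of Thra overlap those of Nr1d1 by 263 bases on the other strand, and exons of Rarb overlap those of Top2b by 1793 bases. The libraries came from a kit that keeps the strand, but the sources used here do not give whether counting used it. The levels of Thra and Rarb are therefore uncertain to that extent.

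**Figure D1:**
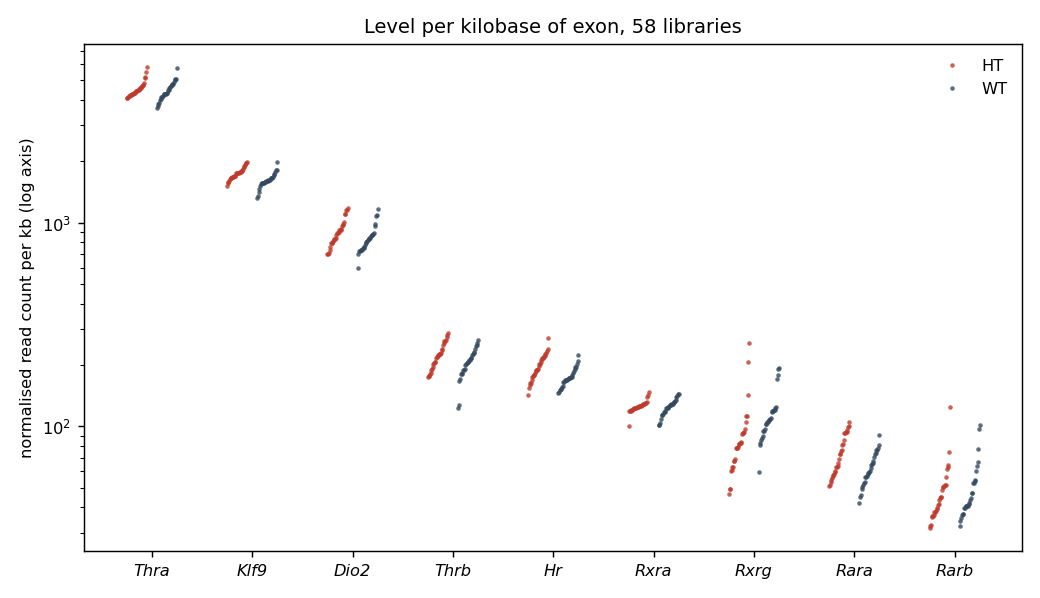
Level of each gene in normalised reads per kilobase of exon on a log axis, 1 point per library, HT (red, left) and WT (dark, right), sorted within genotype. Thra, Klf9, Dio2 and Thrb occupy separate bands, and the points of Rxrg and Rarb are the most spread.

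The comparison of HT with WT asks whether a change in a corepressor subunit goes along with altered levels of the receptors, or of the genes they control. Klf9 was the gene of the set that passed the threshold, as higher in HT, under fluoxetine and over the 3 treatments combined. That call was lost in 6 of 19 other settings under fluoxetine and in 7 of 18 over the treatments. Hr and Rara had larger differences over the treatments, 0.17 and 0.21 against 0.11 for Klf9, without passing. Over the treatments 7 of the 9 genes lay above 0, with a median log2 difference of 0.10, against 0.00 over all genes tested, and Rarb and Rxrg lay below 0. The limma test at a Benjamini-Hochberg adjusted p of 0.05 called 1 of 9 genes under fluoxetine (5 at an unadjusted p under 0.05), where it called 0.994% of all genes (165 of 16606), and 1 of 9 over the treatments (5 unadjusted), where it called 1.07% (177 of 16606). With vehicle it called 0 of 9 (2 at an unadjusted p under 0.05, 0 by edgeR and 0 by DESeq2), against 0.0181% of all genes, and with lithium 0 of 9 (0 unadjusted, 0 by edgeR and 0 by DESeq2), against 0.012%. Of all genes, 18.3% had an unadjusted p under 0.05 under fluoxetine, 5.34% under lithium, 5.76% with vehicle and 15.2% over the treatments. Each difference is on the scale of log2(value + 1), gives both sexes equal weight and carries the SE of a model fitted to all 58 libraries.

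**Figure D2:**
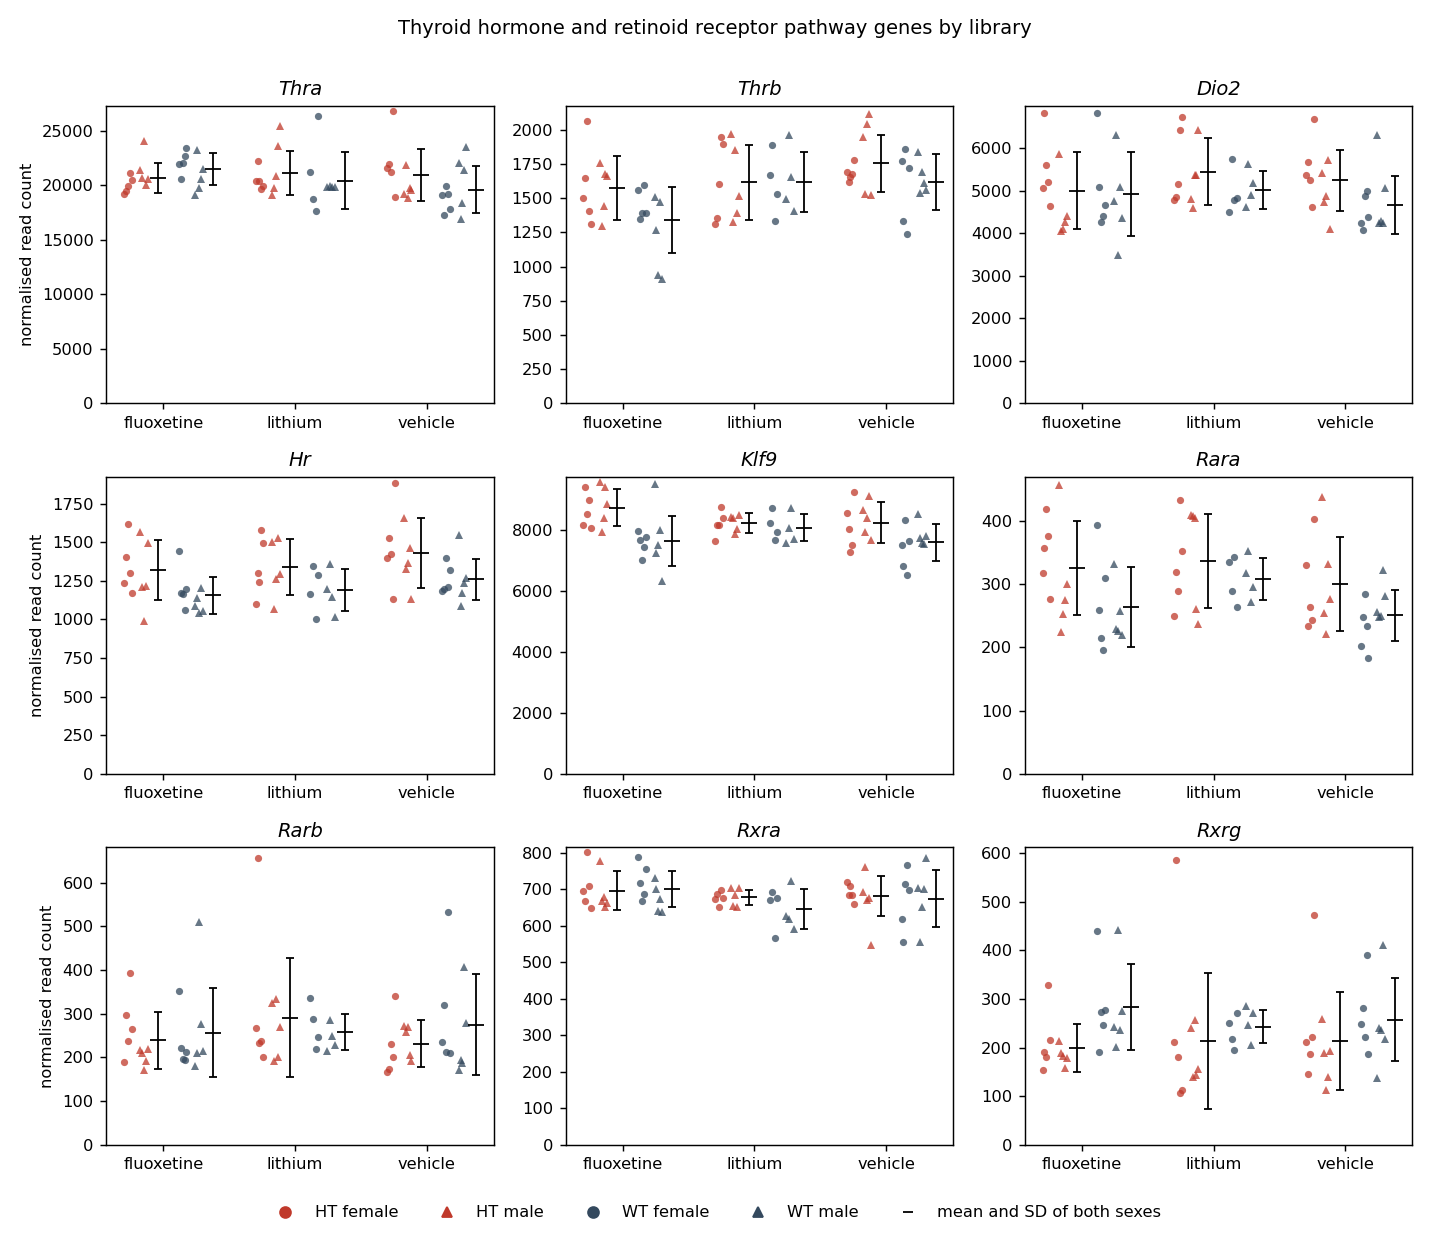
Normalised read count of the 9 genes in each library (axes from 0), grouped by treatment, with HT (red) left of WT (dark), circles for females, triangles for males, and mean with SD of both sexes. Klf9 under fluoxetine averages 8744.2 in HT and 7655.4 in WT libraries, and single high libraries stand out for Rarb and Rxrg.

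Klf9 (ENSMUSG00000033863, chromosome 19, 23141226 to 23168134, plus strand, GRCm38) had 8167.1, 9441.9, 8528.8, 9012.6 and 8079.7 normalised reads in HT fluoxetine females, against 7971.4, 7672.5, 7017.0, 7445.2 and 7780.7 in WT fluoxetine females. All HT values lay above all WT values in females. Males had 9605.3, 7935.0, 8403.7, 9411.4 and 8856.8 in HT fluoxetine, against 9540.8, 7269.0, 7517.4, 8007.4 and 6332.7 in WT fluoxetine. There the groups overlapped: WT males 1 and 4 lay above the lowest HT library, male 2. Still, 10 of the 10 HT libraries exceeded the WT mean of their sex. Klf9 rose by 0.20 ± 0.05 on the log2 scale, or 1.15-fold (limma adjusted p = 0.0383). With vehicle Klf9 averaged 8251.7 ± 669.0 in HT and 7612.4 ± 604.0 in WT libraries (SD, n = 10 each), a log2 difference of 0.12 ± 0.05 that did not pass (limma adjusted p = 0.798). With lithium the means were closer, 8252.2 ± 327.0 in HT (n = 10) and 8091.3 ± 451.0 in WT (n = 8), and the difference was 0.03 ± 0.05 (adjusted p = 0.957). Over the treatments Klf9 rose 1.08-fold, by 0.11 ± 0.03, with 26 of 30 HT libraries above the WT mean of their sex and treatment (limma adjusted p = 0.0358). edgeR and DESeq2 on the recovered reads gave adjusted p-values of 0.0399 and 0.0156 for this rise. The limma call under fluoxetine was lost without any 1 of 10 libraries (adjusted p up to 0.137), and that over the treatments without any 1 of 19 (adjusted p up to 0.0646).

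Marker lists were read beside the Klf9 rise. Of 8 olfactory bulb markers, all 8 lay below 0 in HT over the treatments, with a median of -0.99 and with 6 at an unadjusted p under 0.05, although 0 were called. Under fluoxetine their sum ran from 334.9 to 11472.0 in HT libraries and from 919.6 to 18769.5 in WT libraries, and the genotypes differed in opposite directions in the sexes. Females had medians of 2340.9 in HT and 1680.6 in WT libraries, and males 542.3 in HT and 9785.6 in WT libraries. With the olfactory bulb markers as a covariate the log2 difference of Klf9 over the treatments was 0.08 (limma adjusted p = 0.194), and under fluoxetine it was 0.17 (adjusted p = 0.0527). In the 38 libraries whose summed olfactory bulb markers were under 5000, a limit chosen after seeing the data, the differences were 0.12 (adjusted p = 0.0733) and 0.25 (adjusted p = 0.0274). With upper-layer neuron markers as the covariate, also chosen after seeing the data, they were 0.08 (adjusted p = 0.116) and 0.14 (adjusted p = 0.0812). The summed upper-layer markers under fluoxetine ran from 14904.8 to 18538.2 in HT and from 12717.5 to 16338.0 in WT libraries. Over the treatments the Klf9 difference was 0.12 in females alone and 0.11 in males alone, and did not pass in either (adjusted p = 0.42 and 0.403). Of 10 glucocorticoid response genes, 7 lay above 0 in HT over the treatments with a median of 0.08 and 0 called, their summed value ran from 8308.6 to 12712.9 in HT and from 7808.4 to 11367.8 in WT libraries. Other lists held called genes. Of 14 immediate early genes, which report recent neuronal activity, 12 lay below 0 under fluoxetine with a median of -0.67 and 3 fell, and 12 lay below 0 over the treatments with a median of -0.32 and 2 fell. Their sum under fluoxetine ran from 9040.2 to 23009.1 in HT and from 8508.9 to 32835.0 in WT libraries. Over the treatments 2 of 10 circadian clock genes rose, with sums from 22486.4 to 27366.9 in HT and from 20976.1 to 26708.7 in WT libraries, and 1 of 10 leptomeningeal markers fell, with sums from 4284.3 to 11188.8 in HT and from 4298.6 to 7801.5 in WT libraries. No gene of these 4 lists was at 0 throughout, and their part in the Klf9 result was not tested.

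Hr (ENSMUSG00000022096, chromosome 14, 70552212 to 70573548, plus strand) had a similar difference under each treatment and narrowly missed the threshold. HT libraries ran from 989.7 to 1880.0 normalised reads with a median of 1346.3 (n = 30), and WT libraries from 1005.1 to 1546.5 with a median of 1189.5 (n = 28), so the ranges overlapped. The log2 difference was 0.18 ± 0.08 under fluoxetine, 0.16 ± 0.09 under lithium and 0.17 ± 0.08 with vehicle. Over the treatments it came to 0.17 ± 0.05, with 24 of 30 HT libraries above the matching WT mean (limma adjusted p = 0.0651). DESeq2 called Hr (adjusted p = 0.0231) and edgeR did not (adjusted p = 0.0548). With the olfactory bulb covariate the value was 0.10 (limma adjusted p = 0.349). With the striatal covariate it was 0.18 and passed (adjusted p = 0.0349), as it did with array weights at 0.17 (adjusted p = 0.0303).

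**Figure D3:**
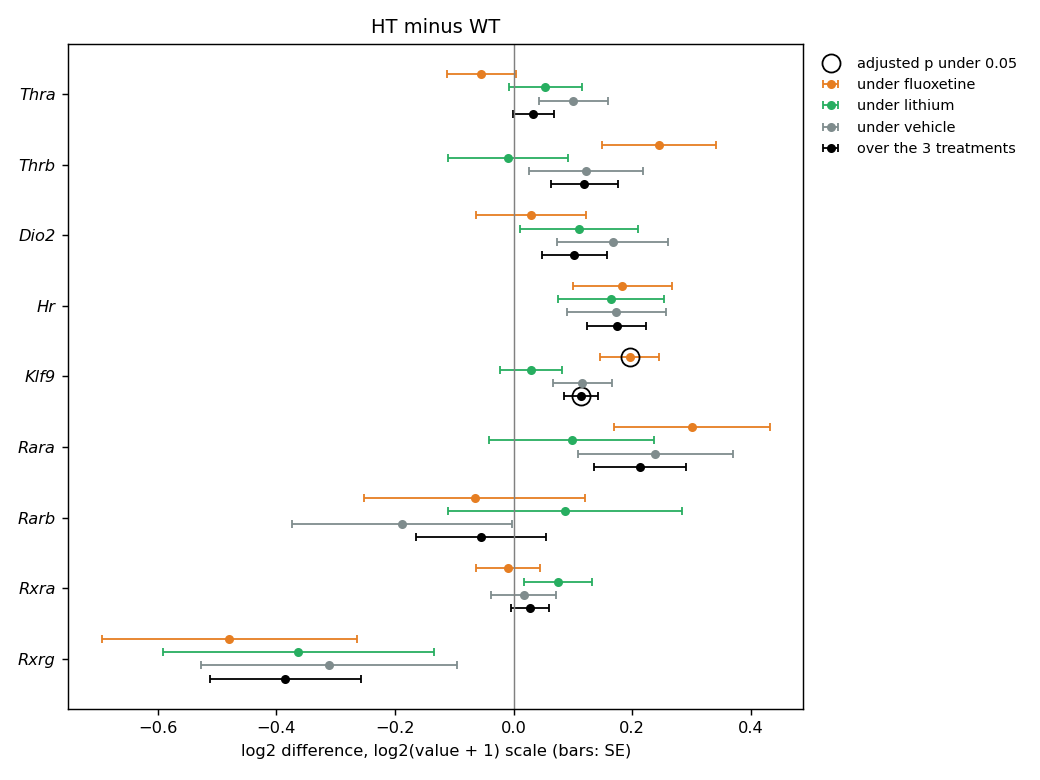
HT minus WT differences of the 9 genes on the log2(value + 1) scale with SE bars, under fluoxetine, lithium and vehicle and over the 3 treatments, with circles around differences past the threshold. The circles enclose Klf9 under fluoxetine (0.20) and over the treatments (0.11), and Hr lies between 0.16 and 0.18 throughout.

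The thyroid hormone receptors and the deiodinase did not pass between the genotypes. Thra (ENSMUSG00000058756, chromosome 11, 98740638 to 98769006, plus strand), the most abundant receptor, had a median of 20425.2 normalised reads in HT and 19908.5 in WT libraries, and a log2 difference of 0.03 ± 0.03 over the treatments. Thrb (ENSMUSG00000021779, chromosome 14, 17660261 to 18038090, plus strand) had medians of 1650.7 in HT and 1537.4 in WT libraries and a difference of 0.12 ± 0.06 (limma adjusted p = 0.305). Its difference was 0.25 ± 0.10 under fluoxetine and -0.01 ± 0.10 under lithium. Dio2 (ENSMUSG00000007682, chromosome 12, 90724552 to 90738438, minus strand) had medians of 5169.2 in HT and 4765.1 in WT libraries and a difference of 0.10 ± 0.06 (limma adjusted p = 0.366).

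Among the retinoid receptors, the values of Rara lay higher and those of Rxrg lower in HT, both without passing. Rara (ENSMUSG00000037992, chromosome 11, 98927818 to 98974942, plus strand), the broadly expressed retinoic acid receptor, ran from 221.5 to 456.3 normalised reads in HT (median 309.1) and from 183.2 to 393.9 in WT libraries (median 261.2). Its log2 difference over the treatments was 0.21 ± 0.08, with 22 of 30 HT libraries on that side (limma adjusted p = 0.163). Rarb (ENSMUSG00000017491, chromosome 14, 16430839 to 16819156, minus strand), the receptor known for striatal expression, had medians of 231.3 in HT and 224.9 in WT libraries and a difference of -0.06 ± 0.11. Rxra (ENSMUSG00000015846, chromosome 2, 27676440 to 27762957, plus strand) hardly varied, with medians of 681.8 in HT and 681.9 in WT libraries and a difference of 0.03 ± 0.03.

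Rxrg (ENSMUSG00000015843, chromosome 1, 167598384 to 167639623, plus strand), the retinoid X receptor of striatal neurons, had the lowest difference of the set. HT libraries ran from 106.7 to 586.3 normalised reads with a median of 187.9 (n = 30), and WT libraries from 136.6 to 442.1 with a median of 246.2 (n = 28). In 25 of 30 HT libraries Rxrg lay below the matching WT mean, and HT lithium female 2 and HT vehicle female 5, with 586.3 and 473.8, lay above every WT library. The log2 difference was -0.38 ± 0.13 over the treatments (limma adjusted p = 0.122), with -0.48 ± 0.22 under fluoxetine, -0.36 ± 0.23 under lithium and -0.31 ± 0.22 with vehicle. Both high libraries also had the highest striatal marker sums of HT, and with the striatal markers as a covariate Rxrg fell by 0.35 ± 0.08 on the log2 scale and passed (limma adjusted p = 0.00893). Without HT lithium female 2 it fell by 0.45 (adjusted p = 0.0261). With the olfactory bulb and striatal markers together the value was -0.25 (adjusted p = 0.0743), and on the recovered reads edgeR and DESeq2 gave adjusted p-values of 0.223 and 0.198.

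The link of single genes to tissue markers was read within groups, over 58 libraries after the 12 group means had been subtracted. Pearson r was computed for the 9 genes to all the marker lists, and 27 relations, to 3 of these lists, were tested. The tests used 100000 permutations, whose smallest p is 1e-05, and the adjusted p cover these 27 only. Deviations were shuffled over all 58 libraries without allowing for the 12 subtracted means, so these p can be too low. Some untested relations had r of similar size, such as -0.526 for Klf9 with leptomeningeal markers and 0.683 for Hr with circadian clock genes. Others were small, such as 0.063 for Klf9 with oligodendrocyte precursor markers. Rarb followed the striatal markers (Pearson r = 0.901, Spearman rho = 0.784, two-sided permutation p = 1e-05 each, adjusted 3e-05), and without the 2 libraries farthest out r was 0.862. Rxrg did so as well (r = 0.807, rho = 0.621, permutation p = 1e-05 each, adjusted 3e-05, and r = 0.745 without those 2). Klf9 ran against the olfactory bulb markers (r = -0.481, permutation p = 0.00011, adjusted 0.00027; rho = -0.527, p = 6e-05, adjusted 0.000162; r = -0.472 without the 2 farthest), and so did Hr (r = -0.618, rho = -0.666, permutation p = 1e-05 each, adjusted 3e-05, and r = -0.578 without the 2 farthest). These were not alone: 8 of the 9 genes had a negative r with the bulb markers, and Thrb, Rxra and Dio2 had r of -0.605, -0.55 and -0.52, rho of -0.603, -0.515 and -0.578, and r of -0.595, -0.448 and -0.486 without the 2 farthest (permutation p of at most 8e-05 each, adjusted at most 0.000196). Rxrg was the exception, with r = 0.008 (permutation p = 0.954, adjusted 0.954) and rho = 0.135 (p = 0.308, adjusted 0.332). How many of all genes had a negative r with the bulb markers was not computed. The count is therefore not shown to be particular to these genes. Thrb, Hr, Klf9 and Dio2 followed upper-layer neuron markers, with r of 0.8, 0.749, 0.693 and 0.667, rho of 0.813, 0.76, 0.707 and 0.693, and permutation p = 1e-05 each (adjusted 3e-05). Without the 2 farthest libraries these r were 0.808, 0.741, 0.688 and 0.617. Rxrg ran against the upper-layer markers (r = -0.357, permutation p = 0.00562, adjusted 0.0117; rho = -0.47, p = 0.0003, adjusted 0.000675; r = -0.457 without the 2 farthest). Values of 1 library share its dissection, depth and scaling.

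**Figure D4:**
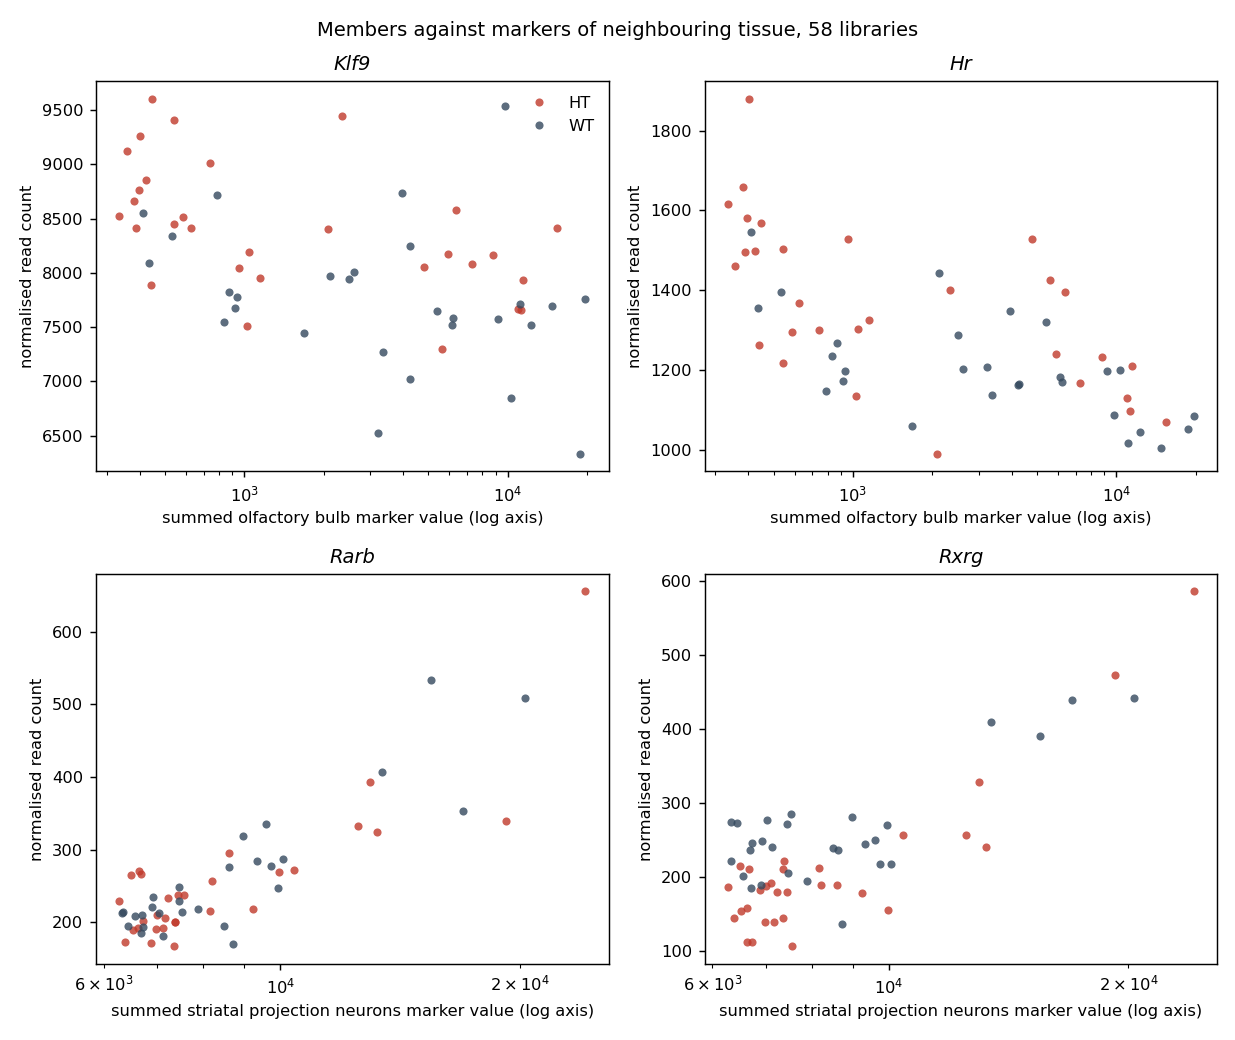
Normalised read counts of Klf9 and Hr against the summed olfactory bulb markers, and of Rarb and Rxrg against the summed striatal markers (log x axes), 1 point per library, HT in red and WT in dark. Klf9 and Hr are lower where bulb markers are high, Rarb and Rxrg are highest in the libraries with the most striatal markers, and at low striatal sums most HT points of Rxrg lie under the WT points.

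Fluoxetine, a serotonin reuptake inhibitor, was set against vehicle in each genotype and over both. Thrb had the lowest difference of the set over both genotypes, without passing. HT fluoxetine libraries had 1296.2 to 2066.9 normalised reads of Thrb (median 1573.1), against 1527.4 to 2118.3 in HT vehicle libraries (median 1682.3). In WT, fluoxetine libraries had 911.6 to 1595.0 (median 1394.9), against 1241.5 to 1860.5 in vehicle libraries (median 1653.3, n = 10 per group). The lowest values were those of WT fluoxetine males 3 and 5, 937.6 and 911.6, and the groups overlapped in both genotypes. The log2 difference of Thrb was -0.16 ± 0.10 in HT, -0.28 ± 0.10 in WT (limma adjusted p = 0.1485) and -0.22 ± 0.07 over both genotypes, with 18 of 20 libraries below the matching vehicle mean (adjusted p = 0.0601). DESeq2 called Thrb over both genotypes (adjusted p = 0.0392), and so did limma without any 1 of 7 libraries. Of 6 upper-layer neuron markers, 5 lay below 0 over both genotypes and 1 fell. Their sum ran from 12717.5 to 18538.2 under fluoxetine and from 14554.0 to 20543.1 with vehicle. With these markers as a covariate, chosen after seeing the data, the Thrb value was -0.06 (limma adjusted p = 0.485). With the olfactory bulb markers as the covariate it was -0.19 and passed (adjusted p = 0.0296). It also passed with the olfactory bulb and striatal markers together, chosen after seeing the data, at -0.19 (adjusted p = 0.0206). Of 6 mural cell markers all 6 lay below 0 and 3 fell, with sums from 3955.7 to 6922.6 under fluoxetine and from 4597.1 to 7448.8 with vehicle. Of 8 endothelial markers 3 fell, with sums from 4804.8 to 7657.3 under fluoxetine and from 5170.2 to 7225.3 with vehicle. Of 10 glucocorticoid response genes all 10 lay above 0 and 4 rose, with sums from 8461.5 to 12712.9 under fluoxetine and from 7808.4 to 9775.4 with vehicle. All 14 immediate early genes lay below 0, 10 of them at an unadjusted p under 0.05, with sums from 8508.9 to 32835.0 under fluoxetine and from 11135.1 to 37325.2 with vehicle. None of these genes was at 0 throughout, and the part of these 4 lists in the Thrb value was not tested.

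In HT, limma called 0 of 9 genes for fluoxetine (0 unadjusted, 0 by edgeR and 0 by DESeq2), against 0.0% of all genes. It called 0 of 9 in WT (2 unadjusted, 0 by edgeR and 0 by DESeq2), against 0.367%, and 0 of 9 over both genotypes (2 unadjusted, 0 by edgeR and 1 by DESeq2), against 2.55%. Unadjusted, 9.19% of all genes lay under 0.05 in HT, 13.4% in WT and 17.4% over both. The other unadjusted differences were those of Thra in WT, 0.14 ± 0.06 (limma adjusted p = 0.265), and of Hr over both genotypes, -0.12 ± 0.06 (adjusted p = 0.285). Klf9 averaged 8744.2 ± 610.0 under fluoxetine and 8251.7 ± 669.0 with vehicle in HT (SD, n = 10 each), a log2 difference of 0.08 ± 0.05, and 7655.4 ± 828.0 and 7612.4 ± 604.0 in WT, a difference of 0.01 ± 0.05. Since the effects in HT and WT do not share libraries, their difference could be tested, and for Klf9 it was 0.08 ± 0.07 (adjusted p = 0.969).

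Lithium, a mood stabiliser that inhibits the kinase GSK3, was compared with vehicle in the same way. Rara had the highest difference, again without passing. It ran from 236.6 to 432.7 normalised reads in HT lithium libraries (median 336.0), against 221.5 to 438.4 in HT vehicle libraries (median 270.8). In WT it ran from 263.1 to 352.8 with lithium (median 306.7, n = 8), against 183.2 to 322.0 with vehicle (median 248.6, n = 10), and 8 of 8 lithium libraries exceeded the vehicle mean of their sex although the ranges overlapped. The log2 difference of Rara was 0.17 ± 0.13 in HT, 0.31 ± 0.14 in WT (limma adjusted p = 0.466) and 0.24 ± 0.10 over both genotypes (adjusted p = 0.17). Rarb in HT had the next highest difference, 0.27 ± 0.19, with HT lithium female 2 at 655.4 and the other HT lithium libraries at no more than 333.2.

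For lithium, limma called 0 of 9 genes in HT (0 unadjusted, 0 by edgeR and 0 by DESeq2), against 0.385% of all genes. In WT it called 0 of 9 (1 unadjusted, 0 by edgeR and 0 by DESeq2), against 0.0301%, and over both genotypes 0 of 9 (1 unadjusted, 0 by edgeR and 0 by DESeq2), against 2.67%. Lithium against fluoxetine called 0 of 9 (1 unadjusted, 0 by edgeR and 0 by DESeq2), where 7.5% of all genes were called. Unadjusted, 12.2% of all genes lay under 0.05 for lithium in HT, 9.38% in WT, 16.9% over both genotypes and 22.4% against fluoxetine. In the last of these Thrb had 1618.9 ± 245.0 normalised reads under lithium (SD, n = 18) and 1458.8 ± 262.0 under fluoxetine (n = 20), a log2 difference of 0.16 ± 0.07 (limma adjusted p = 0.157). The comparisons of each drug with vehicle share the vehicle libraries.

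**Figure D5:**
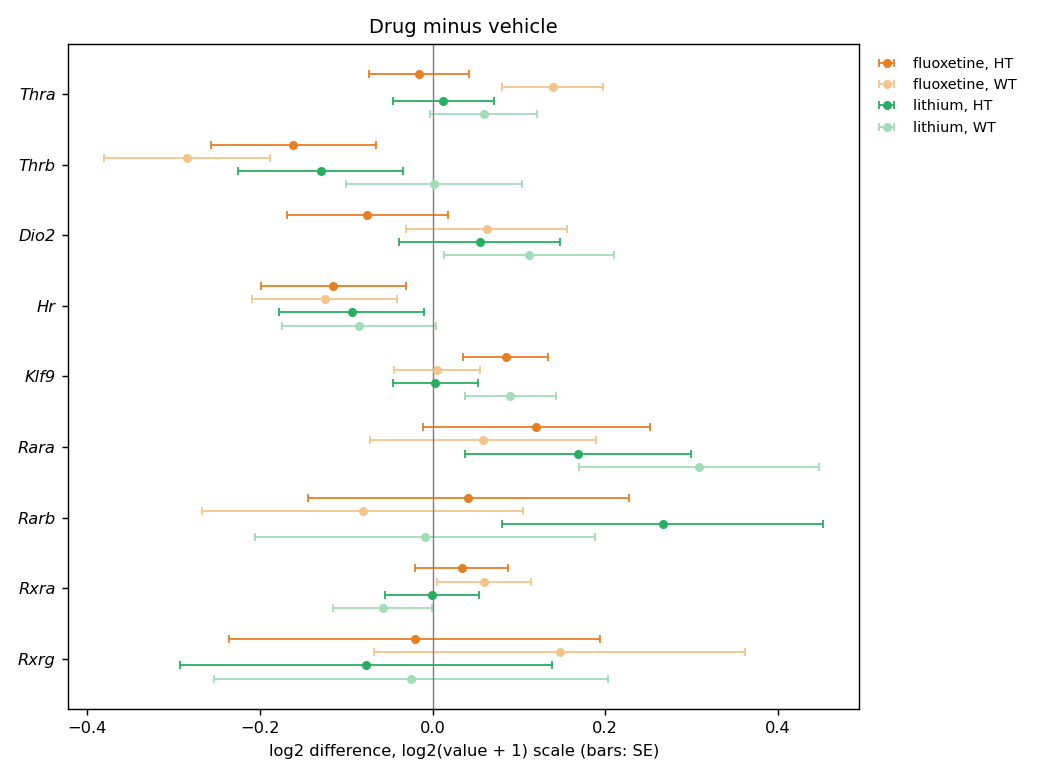
Drug minus vehicle differences of the 9 genes on the log2(value + 1) scale with SE bars, for fluoxetine and lithium in HT (dark shade) and WT (light shade). Thrb under fluoxetine is at -0.16 in HT and -0.28 in WT, Rara under lithium at 0.17 and 0.31, and no difference passed the threshold.

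The tests of whether a drug effect differed between the genotypes called 0 of 9 genes for fluoxetine and 0 of 9 for lithium, and 0.0% of all genes each (limma, 0 unadjusted, 0 by edgeR and 0 by DESeq2 in both). The differences of the 9 genes ran from -0.17 for Rxrg to 0.12 for Thrb under fluoxetine, and from -0.14 for Rara to 0.28 for Rarb under lithium. Females against males called 0 of 9, where 0.114% of all genes were called, with differences from -0.03 for Klf9 to 0.12 for Rxrg (limma, 0 unadjusted, 0 by edgeR and 0 by DESeq2). The genotype, fluoxetine and lithium effects were also compared between females and males, and 0 of 9 genes and 0.0% of all genes were called in each (limma, 0 unadjusted, 0 by edgeR and 0 by DESeq2). For Klf9, the HT against WT difference differed by 0.00 ± 0.06 between the sexes.

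Other genes of the pathway were followed in 5 lists. Of 13 corepressor and coactivator genes, Tbl1xr1 rose by 0.29 ± 0.02 and its paralog Tbl1x by 0.16 ± 0.02 in HT over the treatments (limma adjusted p = 1.57e-15 and 1.25e-08). The other 11, with the scaffold gene Ncor1 among them, did not pass, and the list had a median of -0.01. Among 14 other receptors of the family, 1 was called in HT, the retinoid-related orphan receptor gene Rora, which rose by 0.17 ± 0.04 (adjusted p = 0.0171). None was called among 8 genes of thyroid hormone supply, 13 further thyroid hormone target genes and 12 genes of retinoid supply and breakdown (limma, 0, 2 and 3 unadjusted), in a comparison where 1.07% of all genes were called and 15.2% lay under 0.05 unadjusted. The lowest p of the retinoid list was that of the retinoic acid-making enzyme Aldh1a3, with -0.39 ± 0.12 (adjusted p = 0.0809). Of the target genes 10 of 13 lay above 0, with a median of 0.03.

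Under the drugs, Rorb, a receptor gene of layer IV neurons, fell by 0.24 ± 0.06 with fluoxetine over both genotypes (limma adjusted p = 0.0234), and it had -0.20 ± 0.06 with lithium (adjusted p = 0.0606). The part of upper-layer neuron markers in these Rorb values was not tested. The integrin gene Itga7, from the target list, rose by 0.20 ± 0.06 with lithium (adjusted p = 0.0497). Under lithium relative to fluoxetine, 3 genes fell: the corepressor-bound deacetylase gene Hdac3 by 0.11 ± 0.03 (adjusted p = 0.00692), the orphan receptor gene Nr2f1 by 0.18 ± 0.04 (adjusted p = 0.00978) and Rxrb, the retinoid X receptor that is most abundant per kb here, by 0.09 ± 0.03 (adjusted p = 0.0338). In these data Rxrb had 409.0 normalised reads per kb, against 124.7 for Rxra and 102.1 for Rxrg. No other gene of the pathway lists passed in these comparisons. Of all genes, limma called 2.55% for fluoxetine and 2.67% for lithium over both genotypes, and 7.5% for lithium against fluoxetine. Whether genes of the lists were called more often than other genes was not tested.

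The 3 genes most like each member were taken by Pearson r of log2 values over 58 libraries, after subtracting the group means, among 12949 protein-coding genes with a mean of at least 50. Cobl (r = 0.927) and Map3k5 (0.901) were among the 3 closest to Thrb. Hr was closest to Nfix (0.888), Nfic (0.854) and Ephb2 (0.851), and Klf9 to Rock2 (0.844), Stim2 (0.84) and Fgfr1op2 (0.837). Dio2 had Ahcyl1 (0.796), Traf3 (0.791) and the T4 transporter gene Slco1c1 (0.782). Pde1b and Gpr6 were among the 3 closest to both Rarb (0.897 and 0.846) and Rxrg (0.887 and 0.804), with Adcy5 (0.871) for Rarb and Rgs9 (0.808) for Rxrg, and Gpr6 and Rgs9 are in the striatal list. Thra was closest to Eml2 (0.803), Rara to Cbfa2t3 (0.834) and Rxra to Arhgef4 (0.728). Within the set, Rarb and Rxrg were the most alike (0.794), then Hr and Dio2 (0.686) and Thrb and Klf9 (0.649).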

How the data were processed

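Each signal value in the deposited table is a gene's read count in 1 library after scaling by that library's size factor, which the authors applied. Salmon 0.11.2, R 3.6.0 and DESeq2 1.19.11 with genome build GRCm38 are named in the submitters' processing notes. Values were whole multiples of 1 step per library (100% at a tolerance of 0.0001), and dividing by the step gave the whole reads used as counts. In 6 of 58 libraries the step lay within 1% of 1, where a step cannot be told as clearly from rounding, so that the edgeR and DESeq2 values rest on a less certain recovery there. Gene positions came from GENCODE M21, which matched 18077 of 18088 IDs, and groups and replicate numbers from the sample titles.

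Values were taken as log2(value + 1), and 16606 genes averaging 10 or more were kept. limma 3.58.1 (R 4.3.3) with its trend option was fitted with 12 group means and 46 residual degrees of freedom. The pseudocount of 1 understates differences of low genes. p-values were adjusted over all genes tested by the Benjamini-Hochberg method at 0.05. Differences between groups are means of both sexes. Alternatives included edgeR 4.0.16 and DESeq2 1.42.0 on the recovered reads, other pseudocounts, filters and scalings, covariates and leaving out libraries. The limma fit was tested on simulated data, with genes varying independently and with genotype differences larger than those of Klf9. That test does not show how reliably differences as small as those of Klf9 are called.

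The 9 genes, the pathway and marker lists and the tests were chosen with earlier results of these data known. Besides the 9 genes and Tbl1xr1, the rule names up to 12 pathway genes past the threshold and the 3 genes most like each of the 9. Ncor1, Aldh1a3 and the genes of transport, deiodination and retinoid supply in the closing section were named after their values were seen. Some genes of these lists are not reported here by name.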

Additional observations from a re-analysis of the deposited data

Results flagged for a closer look

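In each group of 4 or 5 libraries, the highest and the lowest value of each gene were checked for a gap to the nearest other library that is wide against the range of the group. Of 108 combinations of gene and group, 10 had such a library, all of them high. For independent, normally distributed values chance gives about 1 in 20. The values checked were untransformed reads of genes that are partly correlated, so that rate need not hold here. HT lithium female 2 stood apart for 3 genes, with 655.4 normalised reads of Rarb (next library of its group 266.0), 586.3 of Rxrg (next 211.5) and 22254.8 of Thra (next 20396.6), and it had the highest summed striatal markers of all libraries, 24186.4. HT vehicle female 5 had 473.8 of Rxrg (next 222.1), with a striatal sum of 19221.6. WT fluoxetine male 3 had 508.7 of Rarb (next 275.7), with a striatal sum of 20309.1, and WT fluoxetine female 1 had 352.8 of Rarb (next 220.8), with 16982.1. In HT fluoxetine male 1, Dio2 had 5870.2 (next 4402.0) and Rxra 778.4 (next 679.8). Thra had 21870.0 in HT vehicle male 2 (next 19716.8), and Klf9 had 8554.2 in WT vehicle male 1 (next 7820.5). The part of the striatal markers in these values was not tested library by library.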

How the results depend on the processing

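Over 17 comparisons, 9 genes and all alternatives, 7970 of 8046 differences stayed on the same side of the threshold, 42 lost their call, 34 gained one, and 0 turned sign while called. In the main fit only Klf9 was called, so most of these differences were uncalled and stayed so. Under fluoxetine Klf9 lost its call in 6 of 19 settings and in 10 of 20 fits without 1 library. Over the 3 treatments it lost it in 7 of 18 settings and in 19 of 58 such fits. Other pseudocounts, filters, upper-quartile rescaling, centring and edgeR changed no call of the 9 genes. Pairing by the replicate numbers of the titles was not seen. Same-numbered libraries of different groups had a median correlation of deviations of 0.0024 (-0.488 to 0.577, n = 309 pairs), against -0.0042 for other pairs. In WT lithium males the library names number some libraries otherwise than the titles do. With the replicate number as a block the counts stayed at 1 for HT against WT under fluoxetine, 1 over the 3 treatments and 0 elsewhere. For HT against WT under fluoxetine (1 gene), the count was 0 with only the groups of the comparison, in females alone, in males alone, and with the olfactory bulb, the upper-layer and the combined olfactory bulb and striatal covariates. Over the 3 treatments (1 gene) it was 0 in each sex alone, with those 3 covariates and in the libraries under the olfactory bulb limit, 2 with array weights and DESeq2 (Klf9 and Hr) and 3 with the striatal covariate (Klf9, Hr and Rxrg). With the oligodendrocyte covariate it was 1, with Rxrg at -0.45 (limma adjusted p = 0.0433) in place of Klf9 at 0.11 (adjusted p = 0.0582). For fluoxetine against vehicle over both genotypes (0 genes), it was 1 with array weights, DESeq2, the olfactory bulb covariate and the combined covariates (Thrb), and 1 with the upper-layer covariate (Klf9, 0.12, adjusted p = 0.0151). In WT alone it was 1 with array weights (Thrb, -0.34, adjusted p = 0.0133). For lithium against vehicle over both genotypes (0 genes), it was 3 with the upper-layer covariate (Klf9 at 0.11, Dio2 at 0.19 and Rara at 0.31). For lithium against fluoxetine (0 genes), it was 1 with array weights, the upper-layer covariate and the combined covariates (Thrb at 0.19, 0.13 and 0.16). The upper-layer and combined covariates and the olfactory bulb limit were chosen after seeing the data, and the cause of these changes was not tested.

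Leaving out 1 library gave 0 to 2 genes for HT against WT over the 3 treatments, 0 to 1 under fluoxetine and 0 to 1 for fluoxetine over both genotypes. Klf9 under fluoxetine lost its call without HT fluoxetine females 2 or 4 or males 1, 4 or 5, or WT fluoxetine females 3 or 4 or males 2, 3 or 5 (0.16 to 0.20, adjusted p from 0.0546 to 0.137). Over the treatments Klf9 lost it without 1 of 19 libraries (0.10 to 0.11, adjusted p from 0.0504 to 0.0646): HT fluoxetine females 2 or 4 or males 1 or 4, HT lithium females 4 or 5 or male 1, HT vehicle female 5 or males 1 or 4, WT fluoxetine female 3 or male 5, WT lithium females 3 or 4 or males 1 or 4, or WT vehicle females 2 or 4 or male 3. Hr passed over the treatments without any 1 of 9 libraries (0.18 to 0.19): HT fluoxetine female 5 or male 3, HT lithium female 1 or male 2, HT vehicle female 4 or male 5, WT fluoxetine female 1, WT lithium male 2, or WT vehicle male 1. Rxrg passed without HT lithium female 2. Thrb passed for fluoxetine over both genotypes without any 1 of 7 (-0.25 to -0.23): HT fluoxetine female 3, HT vehicle males 2 or 5, WT fluoxetine female 1 or males 1 or 4, or WT vehicle female 4. Counts over all genes moved more: 177 genes over the treatments became 7 to 369, 165 under fluoxetine 5 to 593, and 26 to 1109 without 1 library. For fluoxetine, 423 genes over both genotypes became 3 to 886 and 61 in WT 0 to 859. For lithium, 443 over both genotypes became 0 to 1165, 64 in HT 0 to 234, 5 in WT 0 to 284, and 1245 against fluoxetine 38 to 2182. The lowest value of the 9 genes in any library was 106.7 normalised reads, of Rxrg.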

Other observations

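The thyroid hormone transporter gene Slco1c1 had 446.3 normalised reads per kb over the 58 libraries, while the inactivating deiodinase Dio3 had 28.33, against 868.3 for Dio2. Ttr, the carrier protein gene of the choroid plexus, ran from 0.0 to 29769.0 normalised reads. Of the enzymes that make retinoic acid, Aldh1a1 had 241.4 reads per kb, Aldh1a2 109.6 and Aldh1a3 19.49, and Cyp26b1, which breaks it down, had 136.8. Crabp1, a retinoic acid binding protein gene, had a log2 difference of -0.86 ± 0.32 between HT and WT over the treatments (limma adjusted p = 0.176), and it was at 0.0 in its lowest library. Lithium against fluoxetine gave -0.30 ± 0.11 for Dio3 (limma adjusted p = 0.073).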
